A study of Mus musculus with 6 samples.

Results

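The type I interferon response was followed through 33 genes of mouse primary osteoblasts, chosen by name as interferon-induced, nucleic acid sensing and interferon receptor genes. All 33 were among the 51912 gene IDs of the count table, and all 33 were among the 19017 genes that passed the filter on low counts. The cells were bone-forming cells of the skull vault (calvaria), taken from C57BL/6J pups at 1 d of age. All pups were Mark3 flox/flox, so that both alleles of Mark3 carry loxP sites in every library. In the Mark3-KO group (3 libraries, genotype given as Mark3-/-) Cre adenovirus was applied for 24 h, and in the WT group (3 libraries, genotype given as wild-type) GFP adenovirus for 24 h. Both groups therefore had a virus, and cells without virus were not analysed here. Mark3 is a serine/threonine kinase that acts on microtubule-associated proteins. Its deletion came together with the Cre protein and the Cre virus, while WT alone had GFP and the GFP virus. The parts of deletion, Cre, GFP and the virus used therefore cannot be told apart. Nothing in the labels tells whether a group's libraries are separate cultures, and p-values may therefore reflect technical spread alone. The libraries held between 56925883 and 71445243 counts in Mark3-KO and between 57154757 and 67044409 in WT. Levels are counts set against library size (CPM), with sizes scaled with the trimmed mean of M values (TMM), library values are given in the order of replicates 1, 2 and 3, errors are SD with n = 3, and log2 fold changes are Mark3-KO over WT with their standard error (SE). As a check of the labels, Mark3 had 47.5, 52.3 and 44.1 CPM in Mark3-KO, against 113, 118 and 117 CPM in WT, and it fell by 1.27 on the log2 scale (SE 0.10, edgeR adjusted p 0.0153). It did not pass when Mark3-KO replicate 2 (edgeR adjusted p 0.0798), Mark3-KO replicate 3 (0.0681) or WT replicate 2 (0.128) was left out, with log2 fold changes of -1.35, -1.22 and -1.27.

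Cells that sense viral nucleic acid make interferon-beta and interferon-alpha, which bind the receptor of Ifnar1 and Ifnar2 on the same and on neighbouring cells. The receptor's kinases phosphorylate STAT proteins, among them STAT2, which joins IRF9 in a complex that binds the interferon-stimulated response element (ISRE) in the promoters of many interferon-induced genes. In bone, interferon-beta is known as a brake on osteoclast formation, and adenoviral vectors are known to be able to set off this response in many cells.

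Sequences before the start sites are shown because genes that hold the ISRE differed in direction between Mark3-KO and WT. RefSeq promoter windows (GRCm38.p6, 250 bases before to 50 bases after a start) were at hand for 25 of the 33 genes, in 29 windows. The core of the motif, spelled as GAAA, NN and GAAA in a row and read on both strands with overlapping matches kept, lay in 14 of these 29 windows (48.3%), against 3.44% of all 32851 windows of the same length. These 14 windows belonged to 13 genes, namely Bst2, Cxcl10, Ddx58, Ifih1, Ifit1, Ifit3, Ifit3b, Isg15, Oas1a, Oas3, Rsad2, Stat2 and Trim30a. A second motif, TTCNNNGAA, the palindrome bound by STAT dimers, lay in 6 of the 29 windows (20.7%), against 8.30% of all windows. Because most of the 33 genes were chosen as interferon-induced, these shares describe the list and are not a result of the comparison. Shown next are the 250 bases before the start of 3 IFIT genes, which measured higher in Mark3-KO, and of Isg15, which measured lower, with ISRE matches in capitals.
Ifit1 (chr19:34640639-34640888, plus strand): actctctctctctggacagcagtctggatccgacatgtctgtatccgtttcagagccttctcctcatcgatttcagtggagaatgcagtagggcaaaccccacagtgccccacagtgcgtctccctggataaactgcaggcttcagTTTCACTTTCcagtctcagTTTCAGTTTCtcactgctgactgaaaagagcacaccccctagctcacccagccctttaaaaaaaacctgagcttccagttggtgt
Ifit3 (chr19:34583279-34583528, plus strand): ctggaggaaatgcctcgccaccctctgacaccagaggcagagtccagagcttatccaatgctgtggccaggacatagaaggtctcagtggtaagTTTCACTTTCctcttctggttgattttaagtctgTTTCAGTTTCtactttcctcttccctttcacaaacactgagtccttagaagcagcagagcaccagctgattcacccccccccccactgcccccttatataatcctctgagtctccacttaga
Ifit3b (chr19:34607707-34607956, plus strand): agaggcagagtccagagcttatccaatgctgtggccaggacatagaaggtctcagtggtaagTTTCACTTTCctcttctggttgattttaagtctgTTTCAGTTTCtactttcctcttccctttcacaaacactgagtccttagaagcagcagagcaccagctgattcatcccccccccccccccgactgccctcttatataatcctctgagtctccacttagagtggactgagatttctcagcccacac
Isg15 (chr4:156200819-156201068, minus strand): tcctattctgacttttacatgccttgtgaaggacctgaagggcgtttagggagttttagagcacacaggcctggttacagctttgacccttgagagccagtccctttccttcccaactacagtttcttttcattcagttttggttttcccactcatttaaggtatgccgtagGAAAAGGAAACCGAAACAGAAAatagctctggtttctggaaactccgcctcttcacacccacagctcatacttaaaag
Ifit1 has matches that begin 104 and 85 bases before the start, both on the opposite strand. In Ifit3 and Ifit3b, which are near-copies, the 2 matches are 34 bases apart in each gene and begin 156 and 122 bases before the start of Ifit3 and 188 and 154 bases before that of Ifit3b. Isg15 has 3 overlapping matches that begin 78, 72 and 66 bases before its start. The windows of Ifit2 did not hold these letters.

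None of the 33 genes passed an adjusted p of 0.05 between Mark3-KO and WT in edgeR's quasi-likelihood test, where 0.216% of all tested genes passed. Many genes sat just past that threshold. The smallest edgeR adjusted p of the 33 was 0.0506, shared by Ifit1, Ifit2 and Ifi47, and 4666 of all tested genes lay between 0.05 and 0.055. At an unadjusted p below 0.05 there were 12 of the 33 higher and 2 lower, against 45.7% of all tested genes (20.8% higher and 24.8% lower). DESeq2's Wald test called 10 higher and 2 lower at an adjusted p below 0.05, against 37.0% of all genes it tested (14.8% higher and 22.2% lower), and limma-voom called 0, against 0.142%. The share of the 33 genes called in either direction was thus near that of all genes in each test, and is no result about them as a group. How the calls split between higher and lower was not tested. In these bulk libraries, fewer cells of a type and less RNA per cell cannot be told apart. The genes DESeq2 called higher were Ifit1, Ifit2, Ifit3, Ifit3b, Mx2, Ifih1, Ifi44, Ifi47, Trim30a and Parp14, and those called lower were Isg15 and Irf3. Without overlap between the groups were 9 of the 33 on the higher side (Ifit1, Ifit2, Ifit3, Ifit3b, Ifih1, Parp14, Mx2, Ifi47 and Cmpk2), against 25.8% of all tested genes, and 3 on the lower side (Isg15, Irf3 and Irf1), against 27.6%. The median log2 fold change of the 33 was 0.24, with 21 above 0 and 12 below, beside a median of 0.02 over all tested genes. Without Mark3-KO replicate 2 the median of the 33 was 0.09, with 18 above 0 and 15 below. The number called at an adjusted p below 0.05 in edgeR was 12 without Mark3-KO replicate 1 and 5 without WT replicate 3, where 32.1% and 32.9% of all genes were called, and 0 without any other library (0.0152% and 0.0254% of all genes without Mark3-KO replicates 2 and 3, 0.0717% and 0.0% without WT replicates 1 and 2). Other settings likewise moved the count of the 33 with that of all genes, to 10 with a filter of 1 CPM in 3 libraries (37.4% of all genes), 10 with library size alone (23.7%) and 13 at an adjusted p below 0.1 (43.7%).

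**Figure D1:**
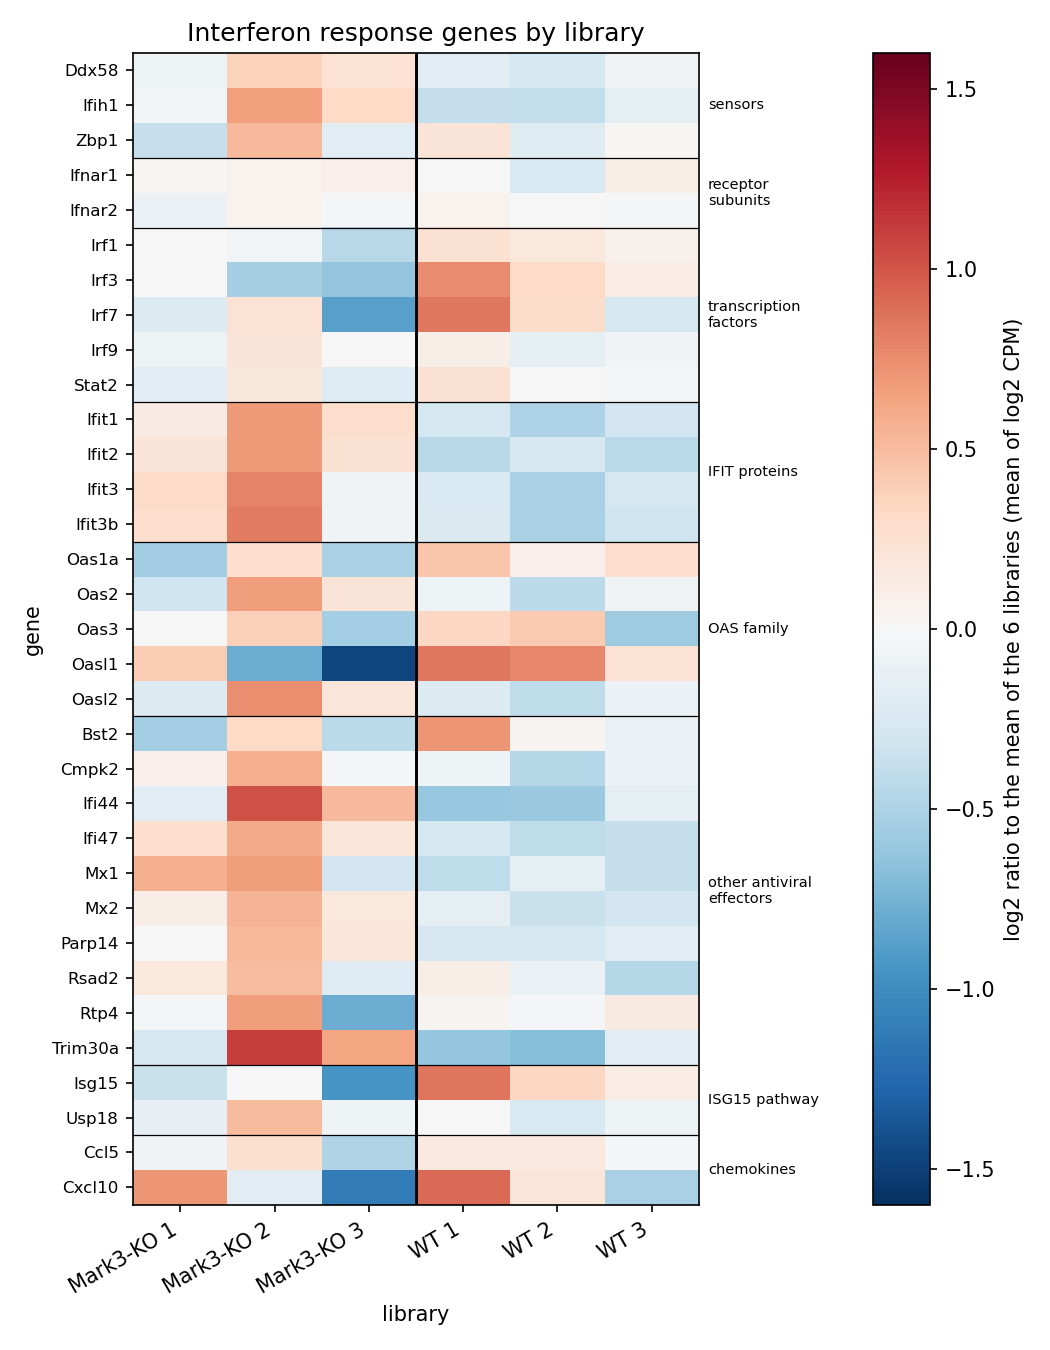
Log2 ratio of CPM in each library to the mean of the 6 libraries for the 33 interferon response genes (rows, by role), with Mark3-KO libraries left of the line and WT libraries right of it. The IFIT rows are red in Mark3-KO replicate 2 and blue in all WT libraries, Isg15 is lowest in Mark3-KO replicate 3, and the column of Mark3-KO replicate 2 holds the highest value of 22 of the 33 genes.

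The ligands were at the limit of detection. The 20 interferon genes in the list (interferon-beta, the interferon-alpha genes and relatives) did not pass the filter on low counts. They summed to 2, 2 and 3 counts in the Mark3-KO libraries and to 4 counts in each WT library. Ifnb1, which encodes interferon-beta, had 0, 0 and 0 counts in Mark3-KO and 3, 3 and 2 counts in WT. For counting error alone, a count of 0 in a library allows up to 3 counts, or 0.0420 to 0.0527 CPM in the Mark3-KO libraries. Taken library by library, the WT counts of Ifnb1 lay within that limit. Because Ifnb1 did not pass the filter, a difference between the groups was not tested. Of the others, Ifne had 0, 2 and 3 counts in Mark3-KO, against 1, 0 and 0 in WT, while Ifna4, Ifna7 and Ifnab had at most 2 counts in any library.

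Among the sensors, Ifih1 and Ddx58, which encode the RNA helicases MDA5 and RIG-I, measured higher in Mark3-KO at an unadjusted p below 0.05. Ifih1 (chromosome 2, 62595798 to 62646255) had 52.2, 84.2 and 66.6 CPM in the Mark3-KO libraries, against 41.1, 40.9 and 48.4 CPM in the WT libraries. These did not overlap (log2 fold change 0.64, SE 0.19, edgeR adjusted p 0.0534). Ddx58 had 161, 220 and 200 CPM in Mark3-KO, against 152, 140 and 164 CPM in WT, where Mark3-KO replicate 1 lay within the WT range (log2 fold change 0.35, SE 0.14, edgeR adjusted p 0.0922). Zbp1, a sensor of Z-form nucleic acid, spanned 9.14 to 17.0 CPM in Mark3-KO and 10.3 to 13.6 CPM in WT, with a log2 fold change of 0.03 (edgeR adjusted p 0.929).

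Levels of the receptor subunits overlapped between the groups. Ifnar1 had 91.9, 93.8 and 95.4 CPM in Mark3-KO, against 90.2, 76.5 and 96.8 CPM in WT. Ifnar2 had 32.4, 35.7 and 34.1 CPM in Mark3-KO, against 35.7, 34.7 and 34.0 CPM in WT. The log2 fold changes were 0.09 (SE 0.11, edgeR adjusted p 0.528) for Ifnar1 and -0.03 (SE 0.10, edgeR adjusted p 0.828) for Ifnar2.

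Of the 5 transcription factors, 4 had log2 fold changes below 0. Irf3, the factor that sensors activate to switch on Ifnb1, had 18.5, 12.8 and 11.95 CPM in Mark3-KO, against 31.2, 22.9 and 20.2 CPM in WT. The groups did not overlap (log2 fold change -0.78, SE 0.24, edgeR adjusted p 0.0558). Irf1, a factor induced by several cytokines, had 33.3, 32.4 and 24.5 CPM in Mark3-KO, against 39.4, 37.3 and 34.8 CPM in WT, again with no overlap but a smaller log2 fold change of -0.30 (SE 0.15, edgeR adjusted p 0.154). Irf7, which amplifies the making of interferon-alpha, spanned 9.84 to 21.1 CPM in Mark3-KO and 14.7 to 32.1 CPM in WT (log2 fold change -0.57, SE 0.36, edgeR adjusted p 0.256). The partners of the ISRE complex overlapped between groups. Stat2 had 116, 149 and 114 CPM in Mark3-KO, against 156, 132 and 128 CPM in WT (log2 fold change -0.13, SE 0.14, edgeR adjusted p 0.491). Irf9 had 64.8, 79.2 and 68.8 CPM in Mark3-KO, against 73.5, 62.3 and 66.1 CPM in WT (log2 fold change 0.08, SE 0.12, edgeR adjusted p 0.631). Irf3 shares 2.56% of its exon bases with Bcl2l12 on the other strand, whose log2 fold change was -1.505, and the library kit (TruSeq version 2) does not mark strand, so reads of the overlap cannot be told apart. The same holds for Irf7 (1.19%, with Phrf1, at 41.3 CPM in Mark3-KO and 81.4 CPM in WT, log2 fold change -0.98) and for Irf1 (3.4%, with Gm17334, log2 fold change -0.39). Irf9 shares 2.28% with Rnf31 on the same strand (log2 fold change -1.13). With the GC correction Irf3, Irf1, Irf7 and Stat2 all turned to log2 fold changes above 0, of 0.10 to 0.26.

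The 4 IFIT genes, whose proteins bind viral RNA, measured higher in Mark3-KO by a like amount. All 4 lie within chromosome 19 from 34550694 to 34650009 on the plus strand, all 4 were higher in each Mark3-KO library than in any WT library, and their log2 fold changes lay between 0.73 and 0.77. Ifit1 had 117, 171 and 130 CPM in Mark3-KO, against 88.5, 76.2 and 86.6 CPM in WT. Its means were 139 ± 28.3 CPM in Mark3-KO and 83.8 ± 6.65 CPM in WT (log2 fold change 0.74, SE 0.16, edgeR adjusted p 0.0506). Ifit2 had 23.7, 32.8 and 24.3 CPM in Mark3-KO, against 15.1, 17.1 and 15.3 CPM in WT (log2 fold change 0.77, SE 0.16, edgeR adjusted p 0.0506). In both genes the lowest Mark3-KO library was replicate 1 and the highest was replicate 2. Ifit3 had 72.9, 102 and 56.5 CPM in Mark3-KO, against 49.7, 41.1 and 48.4 CPM in WT (log2 fold change 0.73, SE 0.22, edgeR adjusted p 0.055). Ifit3b had 37.3, 54.5 and 29.5 CPM in Mark3-KO, against 26.0, 21.4 and 24.6 CPM in WT (log2 fold change 0.75, SE 0.23, edgeR adjusted p 0.0576). These are near-copies: 51.2% of the 50-base words of Ifit3 also occur in Ifit3b, so the split of reads between them is uncertain. Ifit3b took between 33.7 and 34.8% of the counts of both genes in all 6 libraries. Their sum was 110, 157 and 86.0 CPM in Mark3-KO, against 75.8, 62.6 and 73.1 CPM in WT, so the sum did not overlap between the groups either. With a correction for the GC content of transcripts the 4 log2 fold changes were 0.31 to 0.62. Of the 4 genes, only Ifit3 then still had no overlap between the groups. Without Mark3-KO replicate 2 the 4 log2 fold changes were 0.47 to 0.59, and with both together 0.15 to 0.36.

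The OAS family holds the enzymes that form oligoadenylate, the activator of RNase L, and relatives of these enzymes. None of the 5 genes reached an unadjusted p of 0.05, and for all 5 the groups overlapped. Oasl2, the most abundant of the 5 per kb of exon, had 72.3, 142 and 96.8 CPM in Mark3-KO, against 72.7, 63.4 and 79.1 CPM in WT. Only Mark3-KO replicates 2 and 3 lay above the WT range (log2 fold change 0.53, SE 0.24, edgeR adjusted p 0.134). Oas2 spanned 4.96 to 9.80 CPM in Mark3-KO and 4.64 to 5.96 CPM in WT (log2 fold change 0.42, edgeR adjusted p 0.259). Without Mark3-KO replicate 2 the log2 fold changes were 0.23 for Oasl2 and 0.14 for Oas2. Oas1a spanned 1.86 to 3.29 CPM in Mark3-KO and 2.89 to 3.72 CPM in WT (log2 fold change -0.49, edgeR adjusted p 0.197), and it shares 57.6% of its 50-base words with Oas1g, so its counts are uncertain. The scarcest per kb of exon were Oas3, at 0.439 to 0.839 CPM in Mark3-KO and 0.432 to 0.855 CPM in WT (log2 fold change -0.12), and Oasl1, at 0.358 to 1.32 CPM in Mark3-KO and 1.16 to 1.78 CPM in WT (log2 fold change -1.03, SE 0.48, edgeR adjusted p 0.138).

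Of the 10 other antiviral effectors, 9 had log2 fold changes above 0, and 6 of these reached an unadjusted p below 0.05. The highest log2 fold changes of all 33 genes were those of Trim30a, a TRIM protein that restrains NF-kB signalling, and Ifi44, an interferon-induced protein. Trim30a had 29.1, 76.0 and 54.5 CPM in Mark3-KO, against 22.97, 21.9 and 31.3 CPM in WT (log2 fold change 1.07, SE 0.35, edgeR adjusted p 0.062). Ifi44 had 33.4, 76.6 and 54.3 CPM in Mark3-KO, against 24.9, 25.02 and 33.9 CPM in WT (log2 fold change 0.97, SE 0.31, edgeR adjusted p 0.0589). In both, Mark3-KO replicate 1 lay below WT replicate 3, while Mark3-KO replicates 2 and 3 lay above the WT range and replicate 2 was the highest. With the GC correction their log2 fold changes were 0.55 for Trim30a and 0.44 for Ifi44, and 0.18 and 0.11 when Mark3-KO replicate 2 was also left out. Parp14, an ADP-ribosyltransferase, had 70.1, 101 and 80.1 CPM in Mark3-KO, against 58.4, 57.9 and 62.2 CPM in WT (log2 fold change 0.49, SE 0.15, edgeR adjusted p 0.0543). Mx2, of a family of dynamin-like antiviral GTPases, had 10.3, 14.0 and 10.8 CPM in Mark3-KO, against 8.73, 7.55 and 7.76 CPM in WT (log2 fold change 0.55, SE 0.17, edgeR adjusted p 0.0551). Mx2 is annotated as a polymorphic pseudogene, and whether its transcripts encode a working protein in these cells was not tested. Ifi47, an immunity-related GTPase, had 4.77, 6.06 and 4.52 CPM in Mark3-KO, against 3.26, 3.001 and 3.04 CPM in WT (log2 fold change 0.72, SE 0.17, edgeR adjusted p 0.0506). For Parp14, Mx2 and Ifi47 the groups did not overlap.

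The remaining effectors overlapped between the groups, other than Cmpk2. Mx1, the relative of Mx2, spanned 3.66 to 7.23 CPM in Mark3-KO and 3.41 to 4.11 CPM in WT (log2 fold change 0.68, SE 0.28, edgeR adjusted p 0.101). Cmpk2, a mitochondrial nucleotide kinase, spanned 6.602 to 10.1 CPM in Mark3-KO and 4.91 to 6.42 CPM in WT (log2 fold change 0.44, SE 0.21, edgeR adjusted p 0.154). Its neighbour Rsad2, which encodes viperin, spanned 6.28 to 10.2 CPM in Mark3-KO and 5.30 to 7.82 CPM in WT (log2 fold change 0.31, SE 0.23, edgeR adjusted p 0.324). Rtp4, a chaperone of membrane receptors that is induced by interferon, and Bst2, which encodes the virion tether tetherin, had log2 fold changes near or below 0. Rtp4 had 20.1, 32.8 and 11.9 CPM in Mark3-KO, against 21.2, 20.4 and 22.8 CPM in WT, so that its highest and lowest libraries of the 6 were both Mark3-KO (log2 fold change 0.01, SE 0.34, edgeR adjusted p 0.987). Bst2 had 26.7, 48.7 and 29.0 CPM in Mark3-KO, against 63.5, 40.2 and 36.1 CPM in WT (log2 fold change -0.42, SE 0.31, edgeR adjusted p 0.316), and its log2 fold change turned to 0.41 with the GC correction. Rtp4 shares 13.9% of its exon bases with Gm45338 on the same strand, and how such reads were counted is not given in the sources used here.

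Isg15 measured lower in Mark3-KO, unlike the IFIT genes. It encodes a ubiquitin-like protein (chromosome 4, 156199424 to 156200818, minus strand) and had 45.3, 57.4 and 30.1 CPM in Mark3-KO, against 104, 72.7 and 62.5 CPM in WT. Every Mark3-KO library lay below every WT library, with a log2 fold change of -0.85 (SE 0.28, edgeR adjusted p 0.0657), of -0.44 with the GC correction, and of -0.70 when Mark3-KO replicate 2 was also left out. The ratio of Isg15 to Ifit1 counts within a library was 0.387, 0.335 and 0.232 in Mark3-KO, against 1.18, 0.955 and 0.722 in WT. Scaling of library size cannot change this ratio, but a GC correction can. The transcripts of Isg15 and Ifit1 hold 52.8% and 43.3% GC. The correction took Ifit1 from a log2 fold change of 0.74 to 0.33, beside the -0.85 and -0.44 of Isg15. Usp18, the protease that removes ISG15 and also restrains the receptor, had 29.8, 46.2 and 31.1 CPM in Mark3-KO, against 32.5, 27.6 and 30.7 CPM in WT. These overlapped, and only Mark3-KO replicate 2 stood apart (log2 fold change 0.24, SE 0.19, edgeR adjusted p 0.363).

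Both chemokine genes overlapped between the groups. Cxcl10, which draws CXCR3-bearing lymphocytes, spanned 2.73 to 9.75 CPM in Mark3-KO and 4.14 to 11.2 CPM in WT (log2 fold change -0.31, SE 0.53, edgeR adjusted p 0.667), the widest SE of the 33. Ccl5, a chemokine that draws leukocytes, spanned 1.35 to 2.25 CPM in Mark3-KO and 1.85 to 2.11 CPM in WT (log2 fold change -0.16, SE 0.23, edgeR adjusted p 0.602).

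Levels of different genes were set beside each other as CPM per kb of exon. Isg15 led the 33, at 58.5 CPM per kb in Mark3-KO and 106 CPM per kb in WT, followed by Bst2 at 38.6 in Mark3-KO and 51.6 in WT and by Ifit1 at 52.5 in Mark3-KO and 31.5 in WT. Isg15 was above Ifit1 in each WT library, while in Mark3-KO their ranges overlapped, at 39.9 to 75.9 CPM per kb for Isg15 and 44.1 to 64.5 for Ifit1. Oas3 was last, at 0.0903 CPM per kb in Mark3-KO and 0.0987 in WT.

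**Figure D2:**
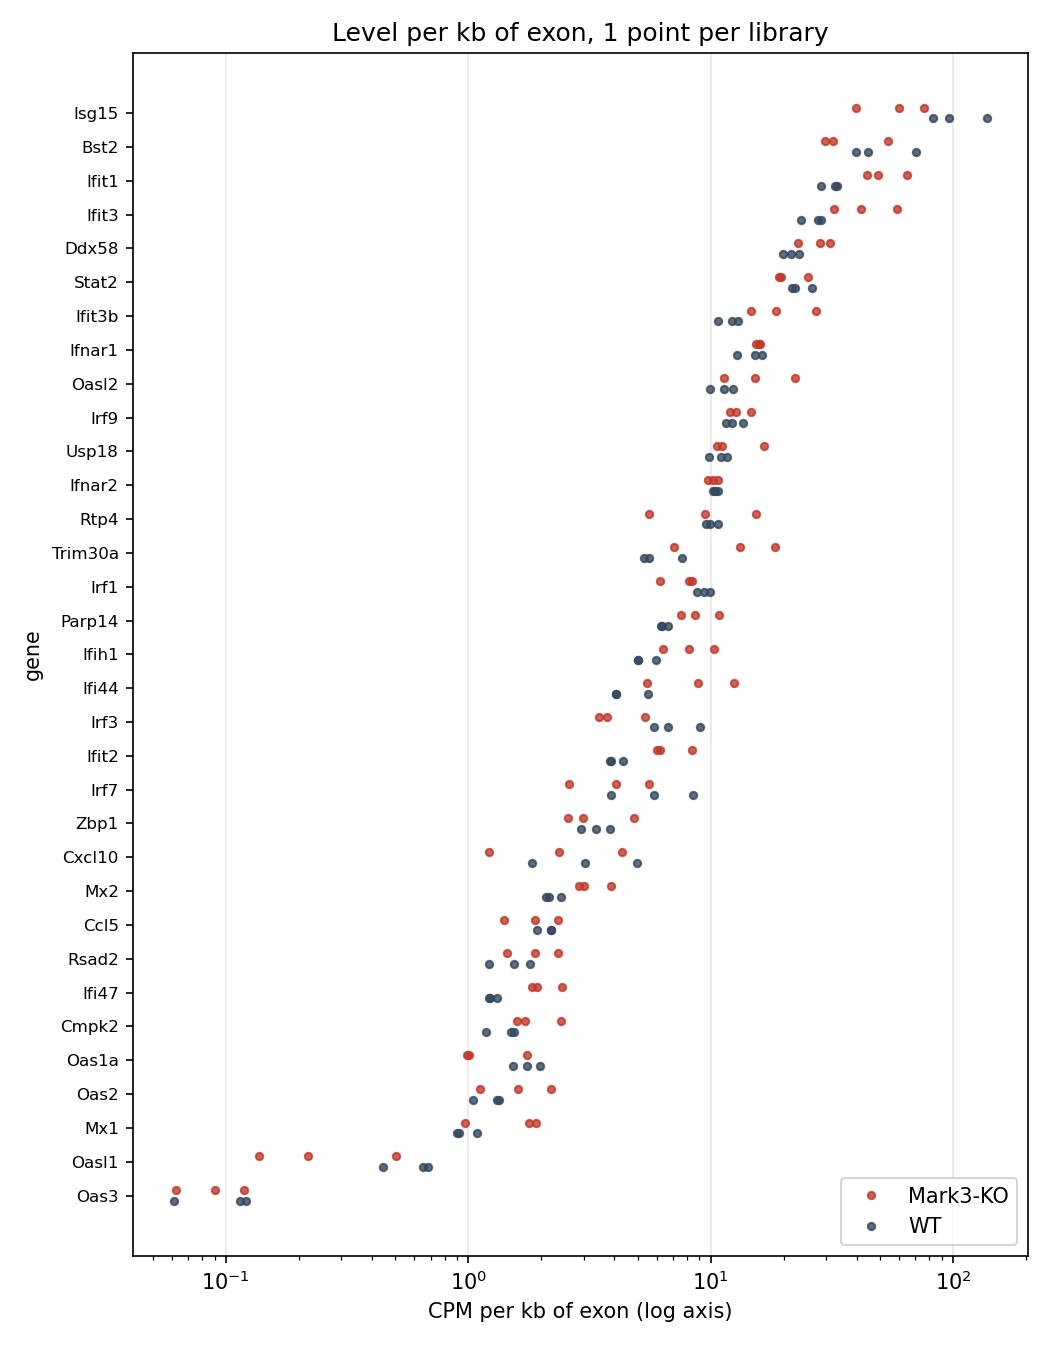
CPM per kb of exon on a log axis for each of the 33 genes, sorted by their mean over the 6 libraries, with 1 point per library (Mark3-KO upper, WT lower in each row). Isg15 leads and Oas3 is last, and the Mark3-KO points of the 4 IFIT genes all lie right of their WT points.

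The log2 fold changes of these genes followed the GC content of their transcripts, as those of all genes did. Over the 33 genes Spearman's rho between log2 fold change and the GC content of the longest transcript was -0.85 and Pearson's r was -0.85, and over 18965 tested genes with a GC value rho was -0.79 and r was -0.72. These are correlations across genes, which share the same 6 libraries and are not independent replicates. All 6 genes below 45% GC (Ifit1, Ifit2, Rsad2, Ifih1, Ifi44 and Trim30a) had log2 fold changes above 0, with a median of 0.75 beside 0.48 for all tested genes of that band. All 4 genes at 55% GC or more (Oasl1, Irf3, Irf7 and Bst2) had log2 fold changes below 0, with a median of -0.68 beside -1.04. Between them, 9 of 10 genes of 45 to 50% GC were above 0 (median 0.51, beside 0.15 for all genes) and 6 of 13 genes of 50 to 55% (median -0.03, beside -0.33).

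After each library was corrected for GC content with a spline, 28 of the 33 log2 fold changes were above 0 and 5 below, against 53.7% above 0 over all tested genes. Their median was 0.24, beside 0.03 over all tested genes, and rho with GC content was -0.20 (r -0.20). None passed an adjusted p of 0.05 in edgeR after the correction, where 0.379% of all genes did. At an unadjusted p below 0.05 there were 3 higher (Ifit3, Mx2 and Ifi47) and 0 lower, against 26.3% of all genes (12.6% higher and 13.8% lower). The smallest edgeR adjusted p was that of Mx2, at 0.0944, with a log2 fold change of 0.76 (SE 0.15). Ifit1 was at 0.33 (SE 0.16, edgeR adjusted p 0.244) and Ifit3 at 0.62 (SE 0.22, edgeR adjusted p 0.14), whereas Irf3 turned to 0.17 (SE 0.09, edgeR adjusted p 0.276) and Irf1 to 0.10. Isg15 was still below 0, at -0.44 (SE 0.23, edgeR adjusted p 0.278), as were Cxcl10, Oasl1, Oas1a and, turned from above 0, Rsad2. With the correction Ifit3, Mx2, Ifi47 and Parp14 (4 genes) were higher in each Mark3-KO library than in any WT library, against 16.2% of all genes, and 0 were lower in each, against 17.0%. Library GC moved with the groups: in the 10% of genes richest in GC, the log2 ratio to the libraries' mean had a median of -0.94 to -0.19 in Mark3-KO and 0.10 to 1.08 in WT, and mitochondrial genes took 2.07 to 3.23% of counts in Mark3-KO and 1.05 to 1.66% in WT. What part these have in the results was not tested beyond the correction.

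**Figure D3:**
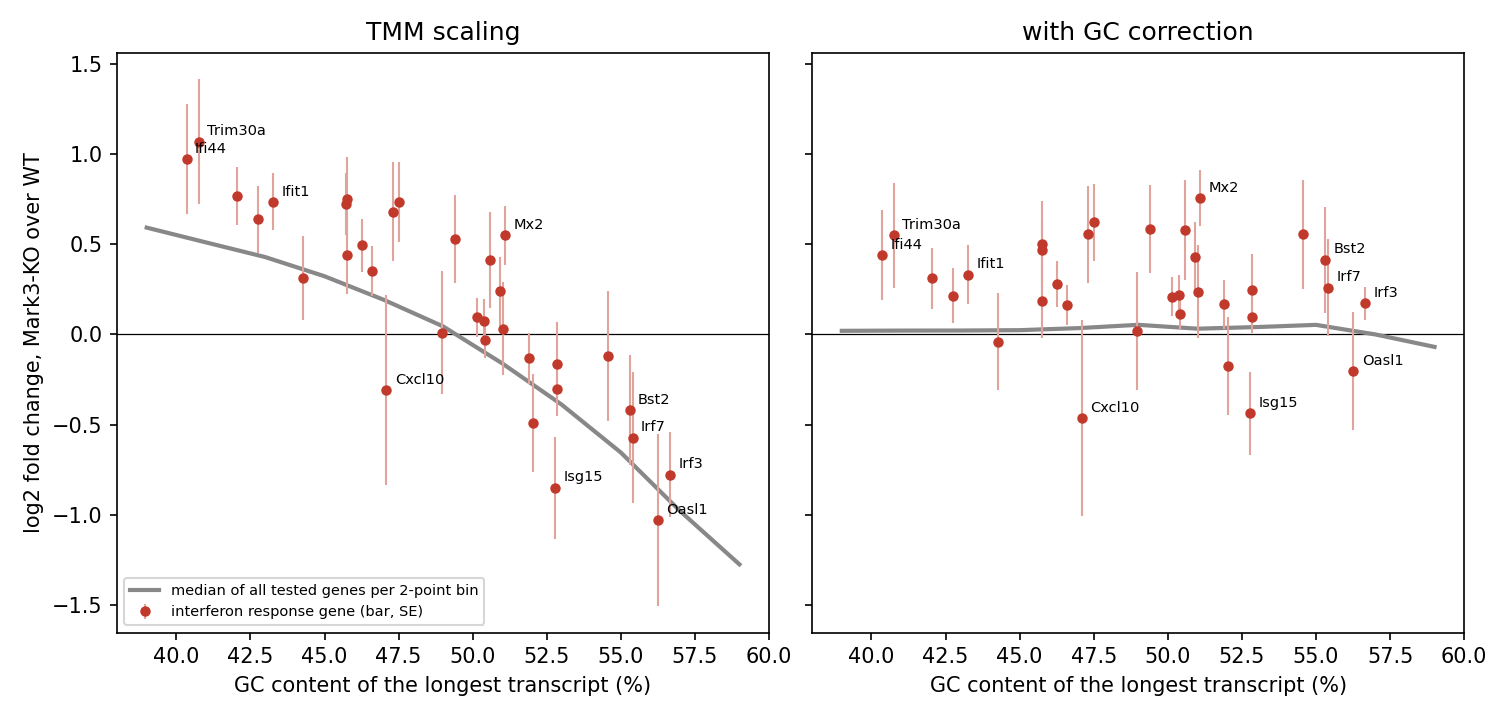
Log2 fold change (Mark3-KO over WT, bars SE) against the GC content of the longest transcript for the 33 genes, with TMM scaling (left) and with the GC correction (right), and the median of all tested genes per bin of GC content as a line. On the left the genes run down with the line from Trim30a at 1.07 to Oasl1 at -1.03, and on the right 28 of the 33 lie above 0.

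Mark3-KO replicate 2 stood apart for these genes. It had the highest value of the 3 Mark3-KO libraries for 28 of the 33 genes, against 20.7% of all tested genes, and the highest of all 6 libraries for 22, against 12.6%. The exceptions were Oasl1, Irf1, Irf3 and Cxcl10, highest in replicate 1, and Ifnar1, highest in replicate 3. After the GC correction it was the highest of the Mark3-KO libraries for 29 of the 33, against 30.4% of all genes. Its CPM over the mean of replicates 1 and 3 had a median of 1.42 over the 33 genes, beside 0.98 over all tested genes, and ran from 0.68 for Oasl1 to 2.05 for Rtp4. By role, the median ratio was 1.62 for the OAS family, 1.52 for Isg15 and Usp18, 1.48 for the IFIT genes, 1.18 for the transcription factors and 1.04 for the receptor subunits. The 33 genes together took 0.127, 0.184 and 0.136% of counts in Mark3-KO, against 0.119, 0.107 and 0.120% in WT. On the GC ratio of libraries and the mitochondrial share, replicate 2 lay between the other 2 Mark3-KO libraries. This view of single libraries was chosen after the values were seen. Without Mark3-KO replicate 2 the smallest edgeR adjusted p of the 33 was 0.154, and the log2 fold change was 0.56 for Ifit1, 0.65 for Ifi44, 0.72 for Trim30a and -1.09 for Isg15. With the GC correction and without that library the median was 0.11, with 24 above 0 and 9 below, against 53.1% of all genes above 0.

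**Figure D4:**
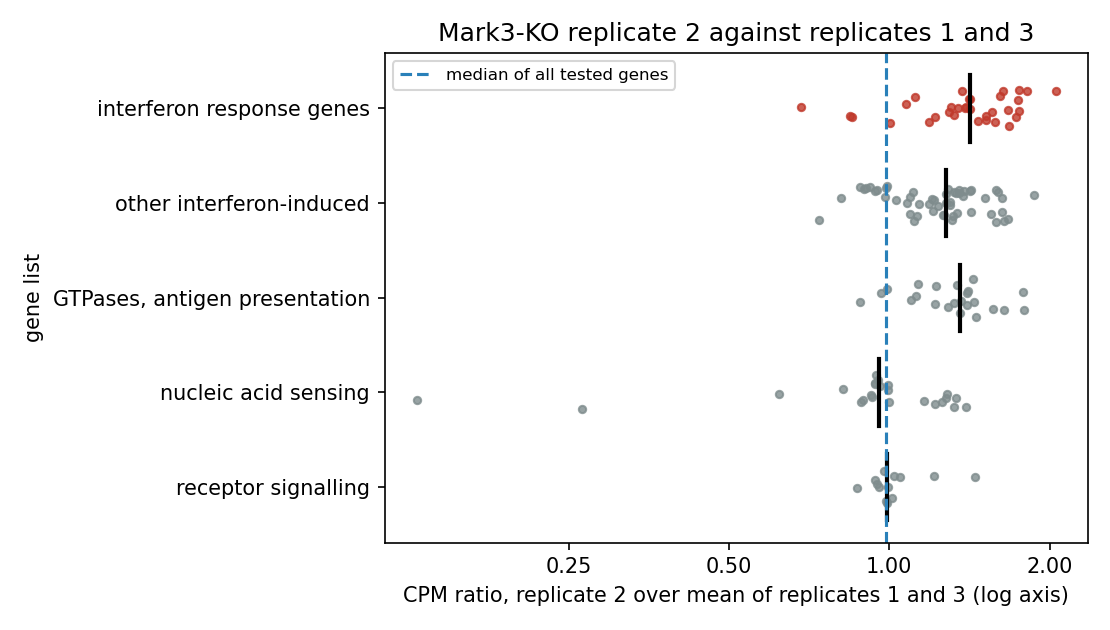
CPM in Mark3-KO replicate 2 over the mean CPM of Mark3-KO replicates 1 and 3 (log axis) for each gene of 5 lists, with the median of each list as a black bar and that of all tested genes as a dashed line. The 33 interferon response genes centre at 1.42 and the receptor signalling genes at 0.99.

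The other genes of the pathway were taken from lists of 143 genes, the 20 interferon genes among them, of which 120 were tested. None passed an adjusted p of 0.05 in edgeR, and at an unadjusted p below 0.05 there were 33 higher and 38 lower, against 20.8% of all genes higher and 24.8% lower. How the lists differ from all genes was not tested. DESeq2's Wald test called 27 higher and 36 lower, against 14.8% of all genes higher and 22.2% lower. Their median log2 fold change was 0.00, with 60 above 0 and 60 below. In the 13 genes of receptor signalling 2 were higher and 7 lower at an unadjusted p below 0.05, against 20.8% and 24.8% of all genes. Those of smallest p were Stat3, Ptpn11, Socs3 and Socs1, all lower in Mark3-KO without overlap. Socs1, an inhibitor of the receptor's kinases, averaged 1.33 ± 0.14 CPM in Mark3-KO and 3.21 ± 1.33 CPM in WT (log2 fold change -1.27, edgeR adjusted p 0.0506), and it was at 0.02 after the GC correction. Stat3 averaged 104 ± 7.98 CPM in Mark3-KO and 176 ± 14.3 CPM in WT (log2 fold change -0.75, edgeR adjusted p 0.0506), and it was at -0.38 after the correction.

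Of the 24 nucleic acid sensing genes 6 were higher and 6 lower at an unadjusted p below 0.05, a share near the 45.7% of all genes. Tlr3, the endosomal receptor of double-stranded RNA, averaged 23.4 ± 4.90 CPM in Mark3-KO and 12.8 ± 1.84 CPM in WT (log2 fold change 0.88, edgeR adjusted p 0.0506). Traf3, an adaptor between sensors and kinases, averaged 32.7 ± 8.75 CPM in Mark3-KO and 59.3 ± 7.09 CPM in WT (log2 fold change -0.86, edgeR adjusted p 0.0506). Ifi204, a sensor of DNA, and Dhx9, a helicase, were the next by p, with log2 fold changes of 0.74 and 0.56. Among 7 tested genes of other interferon regulatory factors and their partners, Irf2bp1 had the smallest p (log2 fold change -1.13, edgeR adjusted p 0.0517) and was at 0.54 after the GC correction.

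Of 53 other interferon-induced genes 16 were higher and 15 lower at an unadjusted p below 0.05, against 20.8% and 24.8% of all genes. Slfn8, a Schlafen protein, averaged 44.5 ± 13.3 CPM in Mark3-KO and 21.4 ± 2.94 CPM in WT (log2 fold change 1.06, edgeR adjusted p 0.0506), and it was at 0.70 after the GC correction. Daxx, a histone chaperone of nuclear bodies, averaged 12.6 ± 3.77 CPM in Mark3-KO and 28.3 ± 6.23 CPM in WT (log2 fold change -1.17, edgeR adjusted p 0.0506). Ifi203 and Ifi205 had log2 fold changes of 0.87 and 0.89. Among 23 GTPases and antigen presentation genes 9 were higher and 9 lower by the same measure, against 45.7% of all genes in either direction. The GTPases Gbp9, Tgtp1 and Tgtp2 had log2 fold changes of 0.89, 0.84 and 0.86, whereas Tap2, a subunit of the peptide transporter, averaged 6.85 ± 1.96 CPM in Mark3-KO and 21.5 ± 9.60 CPM in WT (log2 fold change -1.65, edgeR adjusted p 0.0506). Mark3-KO replicate 2 was the highest Mark3-KO library for 34 of the 53 interferon-induced genes and 18 of the 23 GTPases and antigen presentation genes, but for 7 of the 24 sensing and 2 of the 13 receptor signalling genes, against the 20.7% of all genes.

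Markers of cells that could add such transcripts were read beside these values. The 10 osteoblast markers, led by Col1a1 and Col1a2, summed to 13171 to 14964 CPM in Mark3-KO and 18669 to 39088 CPM in WT. Bglap, the osteocalcin gene of mature cells, was scarce, averaging 0.211 CPM in Mark3-KO and 0.703 CPM in WT. Of the 10 markers 1 had a log2 fold change above 0 and 9 below, with a median of -0.68. In edgeR 1 was higher and 5 lower at an unadjusted p below 0.05, against 20.8% and 24.8% of all genes. The median GC content of their transcripts was 55.1%. With the GC correction 3 were above 0 and 7 below, with a median of -0.30. All 12 macrophage markers were detected, and summed to 250 to 296 CPM in Mark3-KO and 234 to 254 CPM in WT, most of it Lyz2. Marker by marker, 5 of the 12 had log2 fold changes above 0 and 7 below, with a median of -0.40. In edgeR 3 were higher and 3 lower at an unadjusted p below 0.05, against 20.8% and 24.8% of all genes. With the GC correction 8 were above 0 and 4 below, with a median of 0.11. By the same measure 2 were then higher and 0 lower, against 12.6% and 13.8% of all genes. Without overlap after the correction were 4 on the higher side, against 16.2% of all genes, and 0 on the lower side, against 17.0%. The sum was highest in Mark3-KO replicate 1, at 296 CPM, and 270 CPM in replicate 2. The part of macrophages in the results was not tested. The 6 lymphocyte markers summed to at most 0.257 CPM in any library, with Cd3e and Cd3g at 0 in all 6. Of the plasmacytoid dendritic markers, Siglech had 0 counts in Mark3-KO and 3 in WT, while Tcf4, which other cells also express, made up most of that list's sum of 150 to 171 CPM in Mark3-KO and 145 to 167 CPM in WT. The 6 endothelial markers summed to 4.26 to 4.58 CPM in Mark3-KO and 4.17 to 4.54 CPM in WT.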

How the data were processed

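RNA of 6 libraries was measured by RNA-seq. The authors deposited whole-number counts per gene for 51912 Ensembl IDs. GRCm38 and the tools HISAT2 2.0.5, StringTie, FastQC and DESeq2 are named per the submitters' processing notes. How reads of overlapping or near-identical genes were assigned is not given in the sources used here. The GENCODE M21 annotation of GRCm38 matched 51719 IDs, and the 193 others took at most 0.0834% of a library's counts.

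Genes passing filterByExpr (19017) were scaled with TMM and compared with edgeR 4.0.16 (R 4.3.3, quasi-likelihood test, Benjamini-Hochberg adjustment over all tested genes, threshold 0.05). Each SE was the size of the log2 fold change divided by the root of F. Alternatives were DESeq2 1.42.0 (size factors, or its Wald test), limma-voom (limma 3.58.1), library size alone, a block for replicate number, no filter, a filter of 1 CPM in 3 libraries, a GC correction (natural spline with 6 degrees of freedom per library, as an offset), both together, leaving out each library, and a threshold of 0.1. The GC correction without Mark3-KO replicate 2 was added after seeing the data. The fits were run on simulated data with the same dispersion for every gene and no library that stood apart. Such data cannot show how the fits behave when a library differs, as in these data. Floors of 3 counts cover counting error only. The members and lists were chosen with earlier results of these data known. Values in every library are given for the 12 members of smallest p and for those averaging at least 20 CPM, and ranges for the rest. In each other pathway list with tested genes the 4 genes of smallest p are named, apart from the other interferon regulatory factors, where only Irf2bp1 is.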

Additional observations from a re-analysis of the deposited data

How the results depend on the processing

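Calls among the 33 genes hung on the choice of test and filter, as they did for all genes. Beside 0 in the main test, 12 were called by DESeq2's Wald test, 10 with a filter of 1 CPM in 3 libraries, 10 with library size alone and 13 at an adjusted p below 0.1, and 0 to 12 when 1 library was left out. Of the other pathway genes (120 in the main test) 63, 50, 46 and 69 were called under the same 4 settings, against 37.0, 37.4, 23.7 and 43.7% of all genes, and 0 to 54 when 1 library was left out. With DESeq2 size factors, limma-voom, no filter or the GC correction 0 of either were called, and likewise with the GC correction without Mark3-KO replicate 2. In their deviations from the group means, same-numbered libraries correlated at 0.329, -0.0325 and 0.292. Differently numbered ones correlated at -0.355 to 0.0907. The labels do not say what a replicate number marks, and these values cannot settle whether the numbers pair libraries. The block was therefore kept as an alternative only. With the replicate number as a block 11 of the 33 and 69 of the other pathway genes were called, beside 44.6% of all genes, and with the block and the GC correction together 0 and 8, beside 8.38% of all genes. The median log2 fold change of the 33 was 0.35 with library size alone, which moved the median of all genes from 0.02 to 0.13, 0.11 with the GC correction without Mark3-KO replicate 2, and 0.087 to 0.33 when 1 library was left out. The causes were not tested.

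Log2 fold changes that turned sign with the GC correction, and with it plus the block, were those of Oas3 (0.56, 0.54), Rsad2 (-0.039, -0.042), Irf1 (0.10, 0.095), Irf3 (0.17, 0.18), Irf7 (0.26, 0.22), Stat2 (0.17, 0.15), Ccl5 (0.24, 0.22), Bst2 (0.41, 0.34) and Ifnar2 (0.11, 0.11), and with both together Rtp4 (-0.094). With the GC correction without Mark3-KO replicate 2 the turned values were Oas3 0.27, Rsad2 -0.22, Irf1 0.022, Irf3 0.20, Stat2 0.023, Ccl5 0.034, Bst2 0.061, Rtp4 -0.42, Zbp1 -0.080, Cmpk2 -0.021 and Ifnar2 0.073. Oas3 (0.00030) and Ifnar2 (0.084) turned with library size alone, Rtp4 (-0.11) and Zbp1 (-0.023) with limma-voom, Rtp4 (-0.11) and Zbp1 (-0.013) with the block, and Rtp4 (-0.0048) with no filter. Leaving out 1 library gave ranges that cross 0 for Oas3 (-0.39 to 0.079), Cxcl10 (-0.87 to 0.12), Ccl5 (-0.36 to 0.0033), Rtp4 (-0.43 to 0.30), Zbp1 (-0.29 to 0.20), Irf9 (-0.016 to 0.14), Ifnar1 (-0.0058 to 0.16) and Ifnar2 (-0.073 to 0.0029). The 4 IFIT genes, Ifih1, Ifi44, Ifi47, Trim30a, Mx1, Mx2, Parp14, Ddx58, Oas2, Oasl2, Usp18, Isg15, Oas1a and Oasl1 kept their sign in every setting tried. Depth limits the interferon genes, which had at most 3 counts in a library, and Oas3 and Oasl1, which had 22 to 104.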
